A study of Mus musculus with 8 samples.

Results

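The G1 cyclins, their cyclin-dependent kinases (CDKs) and the MYC genes that feed into them were examined in squamous cell carcinomas of the mouse tongue. They are the 10 genes Ccnd1, Ccnd2, Ccnd3, Ccne1, Ccne2, Cdk2, Cdk4, Cdk6, Myc and Mycn, taken by symbol from the 23235 rows of the authors' deposited table. All 10 were found, 9 had passed the authors' own filter for testing, and Mycn had not. The tested samples were 3 tongue squamous cell carcinomas induced with 4-nitroquinoline 1-oxide (4-NQO), a quinoline carcinogen that forms DNA adducts. They were set against 5 normal tongues that had received no 4-NQO, and all 8 samples came from female C57BL/6 mice. Neither the dose and duration of 4-NQO nor the age of the mice is given in the labels. Nothing in them ties a sample to its own animal, so part of the variation among these samples may be technical. Whether the authors' p-values cover that variation is not known, because the program that gave them is not named.

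Cells commit to division in G1. D-type cyclins, induced by growth factors, activate CDK4 and CDK6, which begin to phosphorylate the retinoblastoma protein RB. E-type cyclins with CDK2 complete that phosphorylation, which frees E2F factors to switch on the genes of S phase, the cyclin E genes among them. MYC is a transcription factor that binds the E-box CACGTG with its partner MAX and drives growth and G1 progression. In stratified epithelium such as that of the tongue, dividing cells lie in the basal and lowest suprabasal layers, and human oral carcinomas often gain the cyclin D1 gene and lose the CDK4 and CDK6 inhibitor p16.

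Promoter sequences from RefSeq (build GRCm38.p6) were matched by symbol for 6 of the 10 genes. The 250 bases before the annotated start are shown for the genes that rose in tumours, Ccne1 and Cdk6, and for the kinases of the same stages, Cdk4 and Cdk2. They run 5′ to 3′ on the strand of the gene: Ccne1 at chr7:38107491-38107740 (minus strand), Cdk6 at chr5:3343643-3343892 (plus), Cdk4 at chr10:127063285-127063534 (plus) and Cdk2 at chr10:128705052-128705301 (minus). Capitals mark the E-box CACGTG, the GC box GGGCGG and 4 E2F-type sequences (TTCCCGC, the variant TTCGCGC, the variant TTGCCGC and the variant TTGGCGC), all searched on both strands.
Ccne1: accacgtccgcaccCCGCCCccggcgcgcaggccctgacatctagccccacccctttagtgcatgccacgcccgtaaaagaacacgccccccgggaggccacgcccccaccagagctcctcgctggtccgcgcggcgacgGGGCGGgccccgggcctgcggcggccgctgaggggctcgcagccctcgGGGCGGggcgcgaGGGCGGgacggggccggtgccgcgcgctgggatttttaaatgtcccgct
Cdk6: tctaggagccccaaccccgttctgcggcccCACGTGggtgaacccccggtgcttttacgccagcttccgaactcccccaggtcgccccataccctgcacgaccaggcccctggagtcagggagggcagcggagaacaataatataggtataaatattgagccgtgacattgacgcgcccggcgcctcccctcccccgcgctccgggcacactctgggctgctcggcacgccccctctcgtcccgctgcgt
Cdk4: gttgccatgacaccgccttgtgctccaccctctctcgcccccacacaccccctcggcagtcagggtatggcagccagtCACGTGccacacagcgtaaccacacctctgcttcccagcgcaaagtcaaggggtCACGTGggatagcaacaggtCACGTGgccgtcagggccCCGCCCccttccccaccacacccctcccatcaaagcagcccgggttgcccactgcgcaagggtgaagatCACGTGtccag
Cdk2: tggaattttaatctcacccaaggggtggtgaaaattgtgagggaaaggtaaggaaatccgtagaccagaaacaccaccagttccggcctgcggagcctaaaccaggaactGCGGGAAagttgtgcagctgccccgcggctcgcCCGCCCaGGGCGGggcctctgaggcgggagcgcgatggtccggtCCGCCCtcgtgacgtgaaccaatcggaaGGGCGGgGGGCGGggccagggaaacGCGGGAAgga

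The Cdk4 window holds 4 E-boxes, and those of Cdk6, Ccne1 and Cdk2 hold 1, 0 and 0. Of 32851 promoter windows of the same length across the genome, 6.02% hold at least 1 E-box and 7 windows (0.0213%) hold at least 4. The E2F-type letters, present in 7.89% of all windows, occur at 2 places in the Cdk2 window and at none in those of Ccne1, Cdk6 and Cdk4. GC boxes, present in 32.7% of all windows, number 4 in the Ccne1 window, 5 in Cdk2, 1 in Cdk4 and 0 in Cdk6. The bases G and C make up 76% of the Ccne1 window, 66% of Cdk6, 64.4% of Cdk4 and 63.2% of Cdk2. The median over all windows is 52.4%, and the shares of all windows given here are not adjusted for that difference. No AP-1 sequence (TGANTCA, in 6.75% of all windows) and no cAMP response element (TGACGTCA, in 1.55%) lies in any of the 7 windows matched, which include Mycn and 2 starts of Ccnd3. A match is a description of these letters and not evidence of binding.

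All levels, fold changes, p-values and q-values that follow come from the authors' deposited table. A level is a single FPKM per group (fragments scaled to transcript length and library size), so the spread over the samples cannot be shown and no SD can be given. The depth of the samples is unknown. A ± value is the standard error (SE) of a log2 fold change, derived as the deposited fold change divided by the deposited test statistic. A gene was called where its q was under 0.05, which was the case for 6.26% of the 15783 tested rows, 3.07% higher in tumours and 3.19% lower. The median log2 fold change of tested rows was −0.04.

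Of the 9 tested genes, 2 were called in the authors' deposited table, Ccne1 and Cdk6, both higher in tumours. That is 22.2% of the genes, beside 6.26% of all tested rows. None was called lower. The other 7 tested genes were Ccnd1, Ccnd2, Ccnd3, Ccne2, Cdk2, Cdk4 and Myc, with log2 fold changes between −0.47 and 1.14. The median over the 9 genes was 0.68. In bulk tissue, fewer cells of a type and less RNA per cell cannot be told apart.

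**Figure D1:**
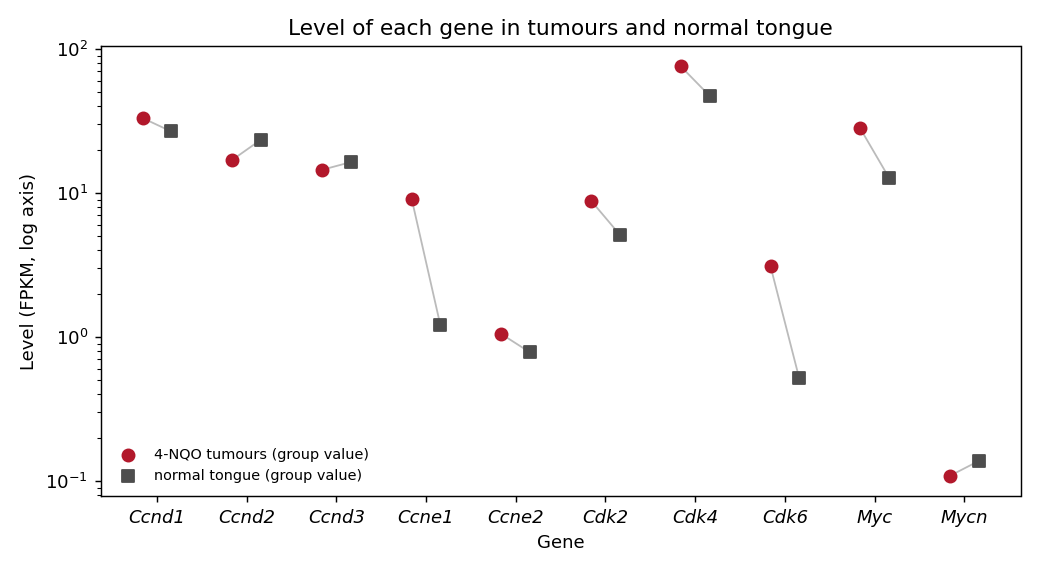
Level of each of the 10 genes (FPKM, log axis) in 4-NQO tumours (red circles, left) and normal tongue (grey squares, right). Each point is the authors' single value for a group, with no error available. The steepest lines belong to Ccne1 (9.12 FPKM in tumours, 1.21 in normal tongue) and Cdk6 (3.10 FPKM in tumours, 0.517 in normal tongue), and Mycn lies lowest in both groups.

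Normal tongue and its carcinoma had more D-type than E-type cyclin transcript. Ccnd1, the cyclin D1 gene, was listed in the authors' deposited table at 33.2 FPKM in tumours and 26.8 FPKM in normal tongue (log2 fold change 0.31 ± 0.49, q = 1.00). Ccnd2, the D-type cyclin of many proliferating and progenitor cells, stood at 17.0 FPKM in tumours and 23.5 FPKM in normal tongue (−0.47 ± 0.48, q = 1.00). Ccnd3, cyclin D3, which is also known for its rise in differentiating muscle cells, stood at 14.5 FPKM in tumours and 16.4 FPKM in normal tongue (−0.18 ± 0.78, q = 1.00). None of these 3 differences was larger than its standard error.

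The D-type cyclins together came to 64.7 FPKM in tumours and 66.7 FPKM in normal tongue in the deposited table, a ratio of 0.97. Ccnd1 made up 51.3% of that sum in tumours and 40.2% in normal tongue, while Ccnd2 made up 26.3% in tumours and 35.3% in normal tongue. The order Ccnd1, Ccnd2, Ccnd3 was the same in both groups. The log2 fold changes of Ccnd1 and Ccnd2 differed by 0.78, with a 95% interval from −0.57 to 2.12 that includes 0. That interval treats the authors' estimates of both genes as independent, although they come from the same samples.

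The 95% intervals set limits on how far the D-type cyclins could have moved in the deposited comparison. For Ccnd1 the tumour level lay between 0.635 and 2.42 times the normal level, for Ccnd2 between 0.377 and 1.39 times, and for Ccnd3 between 0.306 and 2.56 times. With these standard errors, a call would have needed a 2.99-fold change of Ccnd1, a 2.91-fold change of Ccnd2 and a 5.72-fold change of Ccnd3.

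The E-type cyclins, which act after the D-type cyclins, were rare in normal tongue, and Ccne1 rose. Ccne1, cyclin E1, was listed at 9.12 FPKM in tumours and 1.21 FPKM in normal tongue in the authors' deposited table, a 7.54-fold difference (log2 fold change 2.92 ± 0.63, q = 0.000364). Its 95% interval ran from 3.21-fold to 17.8-fold, and with a pseudocount of 1 FPKM its log2 fold change was 2.20. Of all tested rows with a finite fold change, 98.1% had a lower one than Ccne1. Its level lay above 62.1% of tested rows in tumours and above 20.5% in normal tongue.

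Ccne2, cyclin E2, the second activator of CDK2 in this family, did not pass. It was listed at 1.05 FPKM in tumours and 0.783 FPKM in normal tongue (0.42 ± 1.72, q = 1.00). With that standard error, the largest among the 9 tested genes, a 46.7-fold change would have been needed for a call. The table places Ccne2 at 1 locus with its neighbour Ints8 and gives it 2 RefSeq transcripts. The difference between the log2 fold changes of Ccne1 and Ccne2 was 2.49, with a 95% interval from −1.10 to 6.09, so the authors' table does not separate the paralogs.

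E-type cyclins summed to 10.2 FPKM in tumours and 1.99 FPKM in normal tongue in the deposited table, a 5.11-fold difference. Ccne1 was 89.7% of that sum in tumours and 60.7% in normal tongue. Ccne1 stood at 1.03 times the level of its kinase Cdk2 in tumours and at 0.235 times that level in normal tongue. These sums and ratios carry no error, and transcript levels say nothing of the proteins.

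**Figure D2:**
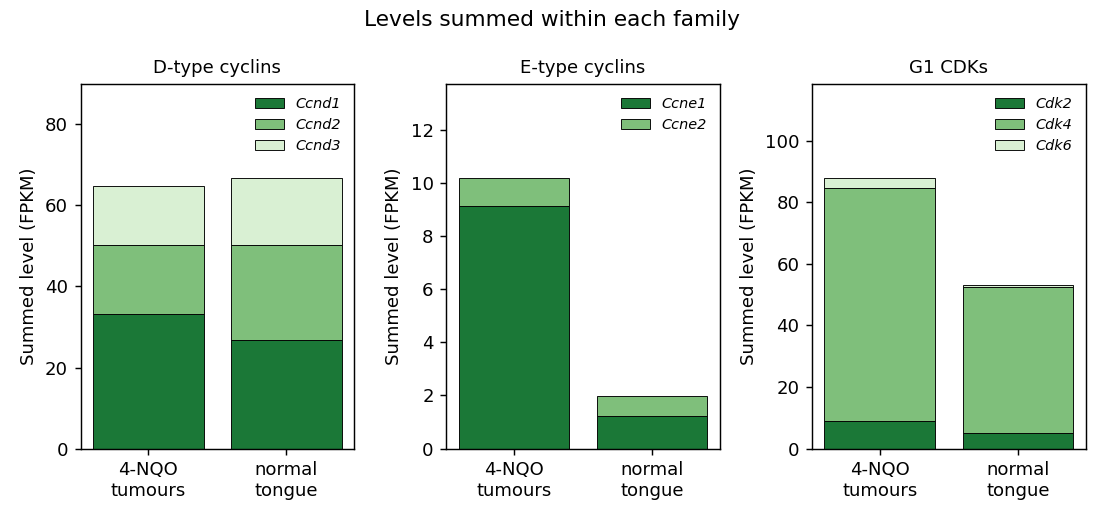
Levels summed within the D-type cyclins, the E-type cyclins and the G1 CDKs (FPKM, linear axes that start at 0 and differ between panels), with 4-NQO tumours left of normal tongue and colours for the genes. The D-type sums are 64.7 FPKM in tumours and 66.7 in normal tongue, the E-type sums 10.2 in tumours and 1.99 in normal tongue, and the CDK sums 87.8 in tumours and 53.1 in normal tongue. Bars are sums of single group values with no error available.

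Among the kinases, Cdk6 rose and Cdk4 remained by far the most abundant. Cdk6, which pairs with D-type cyclins as Cdk4 does, was listed at 3.10 FPKM in tumours and 0.517 FPKM in normal tongue in the authors' deposited table, a 6.00-fold difference (log2 fold change 2.58 ± 0.72, q = 0.0163). Its 95% interval ran from 2.26-fold to 15.9-fold. The gene was weakly expressed in normal tongue, where its level lay above 10.9% of tested rows, and above 36.2% in tumours. With a pseudocount of 1 FPKM its log2 fold change was 1.44, and it was not called at a q threshold of 0.01.

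Cdk4, whose promoter holds the 4 E-boxes shown above, was listed at 75.8 FPKM in tumours and 47.4 FPKM in normal tongue (0.68 ± 0.45, q = 0.945). Its level lay above 94.1% of tested rows in tumours and above 90.5% in normal tongue, the highest of the 10 genes in both groups. Cdk2, the kinase of cyclins E and A, was listed at 8.85 FPKM in tumours and 5.14 FPKM in normal tongue (0.78 ± 0.53, q = 0.957). Neither passed, and the 95% intervals ran from 0.868-fold to 2.94-fold for Cdk4 and from 0.842-fold to 3.52-fold for Cdk2.

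The balance between the cyclin D kinases differed in the deposited values. Cdk4 exceeded Cdk6 24.4 times in tumours and 91.7 times in normal tongue, so that Cdk6 was 3.93% of their sum in tumours and 1.08% in normal tongue. The log2 fold change of Cdk6 was higher than that of Cdk4 by 1.91, with a 95% interval from 0.25 to 3.57. It was higher than that of Cdk2 by 1.80, with an interval from 0.06 to 3.55. These are 2 of 6 pairs compared within families, and the intervals are not adjusted for that number. They again treat the estimates as independent. Cdk6 was low in normal tongue, and with a pseudocount of 1 FPKM the log2 fold changes of the kinases lay closer together. They were then 1.44 for Cdk6, 0.67 for Cdk4 and 0.68 for Cdk2.

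Myc had a positive fold change that did not pass. Its level was 28.1 FPKM in tumours and 12.8 FPKM in normal tongue in the authors' deposited table, a 2.20-fold difference (log2 fold change 1.14 ± 0.53). The unadjusted p of 0.0324 was under 0.05, as for 20.7% of all tested rows, and q was 0.468. Its 95% interval ran from 1.07-fold to 4.52-fold, and a 3.27-fold change would have been needed for a call. Mycn, the paralog best known from embryonic and neural tissue, was listed at 0.109 FPKM in tumours and 0.138 FPKM in normal tongue and was not tested. Its level was below that of all but 1.17% of tested rows in tumours and all but 2.02% in normal tongue.

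**Figure D3:**
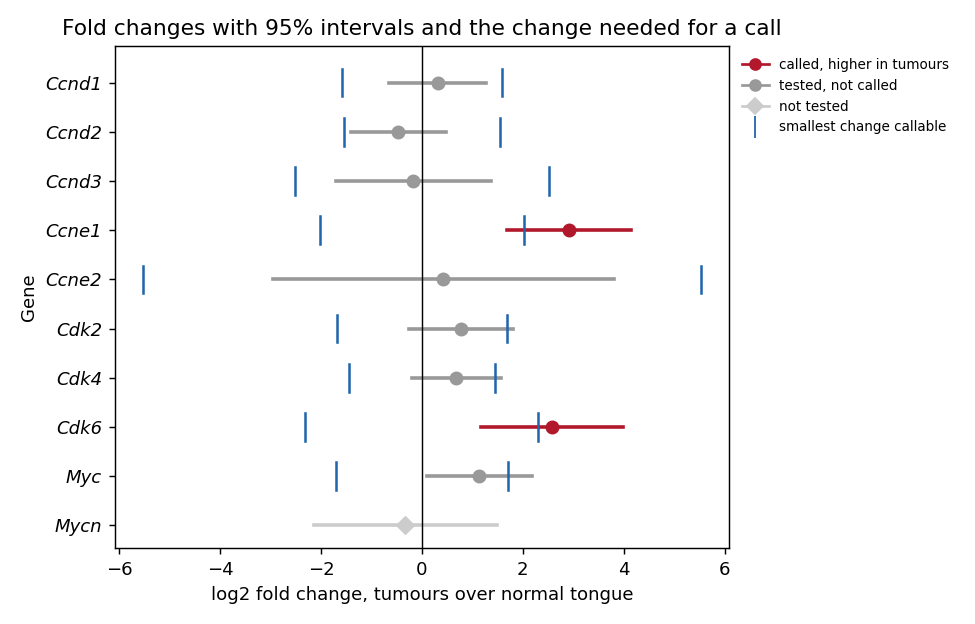
Log2 fold change of each gene, 4-NQO tumours over normal tongue (points), with 95% intervals from the derived standard errors (horizontal lines). Blue ticks mark the smallest change that could have been called with that standard error, 1.45 for Cdk4 and 5.54 for Ccne2. Ccne1 and Cdk6 (red) lie beyond their ticks, and Mycn (diamond) was not tested.

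In the authors' table, whose build is not named, the called genes lie on chromosome 7 at 38883003 to 38892509 (Ccne1) and on chromosome 5 at 3344312 to 3522225 (Cdk6). Cdk2 and Cdk4 are both on chromosome 10, at 128134995 to 128142107 and at 126500659 to 126504338. Ccnd1 is on chromosome 7 at 152115836 to 152125830, Ccnd2 on chromosome 6 at 127075727 to 127162437 and Ccnd3 on chromosome 17 at 47642000 to 47748441. Ccne2 is on chromosome 4 at 11118501 to 11181406, Myc on chromosome 15 at 61816896 to 61821916 and Mycn on chromosome 12 at 12942899 to 12948642. These loci are the table's own and can span several genes: that of Ccnd2 also covers 9330179D12Rik, that of Ccnd3 covers Bysl, and that of Ccne2 covers Ints8. They are not those of GRCm38, in which 1.02% of 20601 symbols start at the same position, and cannot be set against the promoter coordinates above.

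The brakes on these kinases showed a single call. Among 10 tested CDK inhibitors and RB family genes in the authors' deposited table, 1 was called higher and none lower, beside 6.26% of all tested rows. It was Cdkn2a, which encodes p16Ink4a, an inhibitor of CDK4 and CDK6, and p19Arf, at 25.2 FPKM in tumours and 0.167 FPKM in normal tongue (log2 fold change 7.23 ± 1.37, q = 1.75e-05). The median of the list was −0.07, with 5 positive and 5 negative fold changes.

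Among the E2F factors, some of which bind RB and some of which do not, and their DP partners, 2 of 10 tested genes were called. They were 1 in each direction, beside 3.07% of all tested rows called higher and 3.19% called lower. The median was 0.41. E2f7, a repressor of the family that E2F factors themselves induce, rose to 2.90 FPKM in tumours, against 0.234 FPKM in normal tongue (3.64 ± 0.68, q = 1.08e-05 in the deposited table). E2f6, a repressor that does not bind RB, fell to 14.7 FPKM in tumours, against 46.7 FPKM in normal tongue (−1.67 ± 0.48, q = 0.0226).

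Several cyclins of the later phases and the kinase Cdk1 rose. Of 10 tested genes of S, G2 and M phase (cyclins A, B and F, Cdk1 and its activating and inhibiting enzymes), 6 were called in the authors' deposited table, each of them higher in tumours. That is 60% of them, beside 6.26% of all tested rows. The median log2 fold change was 2.34. Cyclin B1, Ccnb1, stood at 18.8 FPKM in tumours and 2.17 FPKM in normal tongue (3.11 ± 0.54, q = 1.67e-06). Its kinase Cdk1 stood at 11.8 FPKM in tumours and 1.45 FPKM in normal tongue (3.03 ± 0.55, q = 6.66e-06).

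The smallest of these rises were in Ccnf, cyclin F, part of a ubiquitin ligase, and in Ccna2, cyclin A2, the partner that CDK2 takes after cyclin E. Ccnf was at 4.34 FPKM in tumours and 0.761 FPKM in normal tongue (2.51 ± 0.62, q = 0.00338 in the deposited table). Ccna2 was at 14.9 FPKM in tumours and 3.31 FPKM in normal tongue (2.17 ± 0.62, q = 0.0236). The log2 fold changes of these 4 named genes lay between 2.17 and 3.11, a range that includes those of Ccne1 and Cdk6. All of these are called genes, and a call needs a large fold change, so that overlap says nothing of the lists as a whole. Over the 10 tested genes of the S, G2 and M list, log2 fold changes ran from −0.47 to 3.11.

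The genes that E2F factors switch on for S phase had 5 of 16 tested members called in the authors' deposited table, each of them higher in tumours. That is 31.2%, beside 6.26% of all tested rows. The median log2 fold change was 1.37 and no member was below 0, whereas 47.6% of tested rows with a finite fold change lay above 0. Orc1, of the origin recognition complex, stood at 1.26 FPKM in tumours and 0.175 FPKM in normal tongue (2.86 ± 0.83, q = 0.0247), and thymidine kinase, Tk1, at 27.3 FPKM in tumours and 5.24 FPKM in normal tongue (2.38 ± 0.55, q = 0.0012). The helicase subunits Mcm5 (2.32 ± 0.51, q = 0.000445) and Mcm4 (1.54 ± 0.47, q = 0.0448) were the lowest of those called.

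Partners of the CDKs split by kind. The CDK-activating kinase genes Cdk7, Ccnh and Mnat1, and Cdc37, a co-chaperone that stabilises CDK4, were not called, with log2 fold changes from −0.23 to 0.16 in the authors' deposited table. The small CDK-binding subunits rose: Cks2 to 40.2 FPKM in tumours, against 7.14 FPKM in normal tongue (2.49 ± 0.57, q = 0.0009), and Cks1b to 33.2 FPKM in tumours, against 7.58 FPKM in normal tongue (2.13 ± 0.55, q = 0.00579). CKS1B helps the ligase SCF-SKP2 recognise the inhibitor p27. Cks2 and Cks1b were 2 of 6 tested genes of that list (33.3%, beside 6.26% of all tested rows), whose median was 0.11.

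Genes that mark G1 cyclins and MYC for destruction, or spare them, had 2 of 13 tested members called in the authors' deposited table. Both were lower in tumours. That is 15.4%, beside 6.26% of all tested rows called and 3.19% called lower. The median of the list was −0.10. Fbxo31, an F-box protein reported to direct cyclin D1 to degradation after DNA damage, fell to 12.7 FPKM in tumours, against 37.5 FPKM in normal tongue (−1.56 ± 0.45, q = 0.022). Usp28, a deubiquitinase that stabilises MYC, fell to 3.76 FPKM in tumours, against 10.1 FPKM in normal tongue (−1.43 ± 0.44, q = 0.0489). Fbxw7, the F-box protein that recognises both cyclin E and MYC, was at 5.75 FPKM in tumours and 7.79 FPKM in normal tongue (−0.44 ± 0.55, q = 1.00). It was chosen after its values were seen.

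The wider network of MAX and MLX proteins around MYC had 1 of 12 tested members called (8.33%, beside 6.26% of all tested rows), and a median of −0.05. Mlxipl, which encodes the glucose-responsive factor ChREBP and pairs with MLX, fell to 3.44 FPKM in tumours, against 11.5 FPKM in normal tongue (−1.74 ± 0.47, q = 0.0123 in the deposited table). Of 15 tested textbook targets of MYC, 1 was called higher and none lower, a share of 6.67% that is close to the 6.26% of all tested rows. The called target was Odc1, ornithine decarboxylase of polyamine synthesis, at 125 FPKM in tumours and 28.8 FPKM in normal tongue (2.11 ± 0.63, q = 0.0332). The targets had 13 positive fold changes and a median of 0.70, whereas 47.6% of tested rows with a finite fold change lay above 0.

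The remaining cyclins and CDKs include many with roles in transcription rather than the cell cycle. They had no call among 24 tested genes in the authors' deposited table, beside 6.26% of all tested rows, and a median of 0.08. At an unadjusted p under 0.05 there were 3 of these 24, a smaller share than the 20.7% of all tested rows. The smallest q belonged to Ccng1, cyclin G1, a p53 target, at 39.0 FPKM in tumours and 110 FPKM in normal tongue (−1.50 ± 0.50, q = 0.0833).

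**Figure D4:**
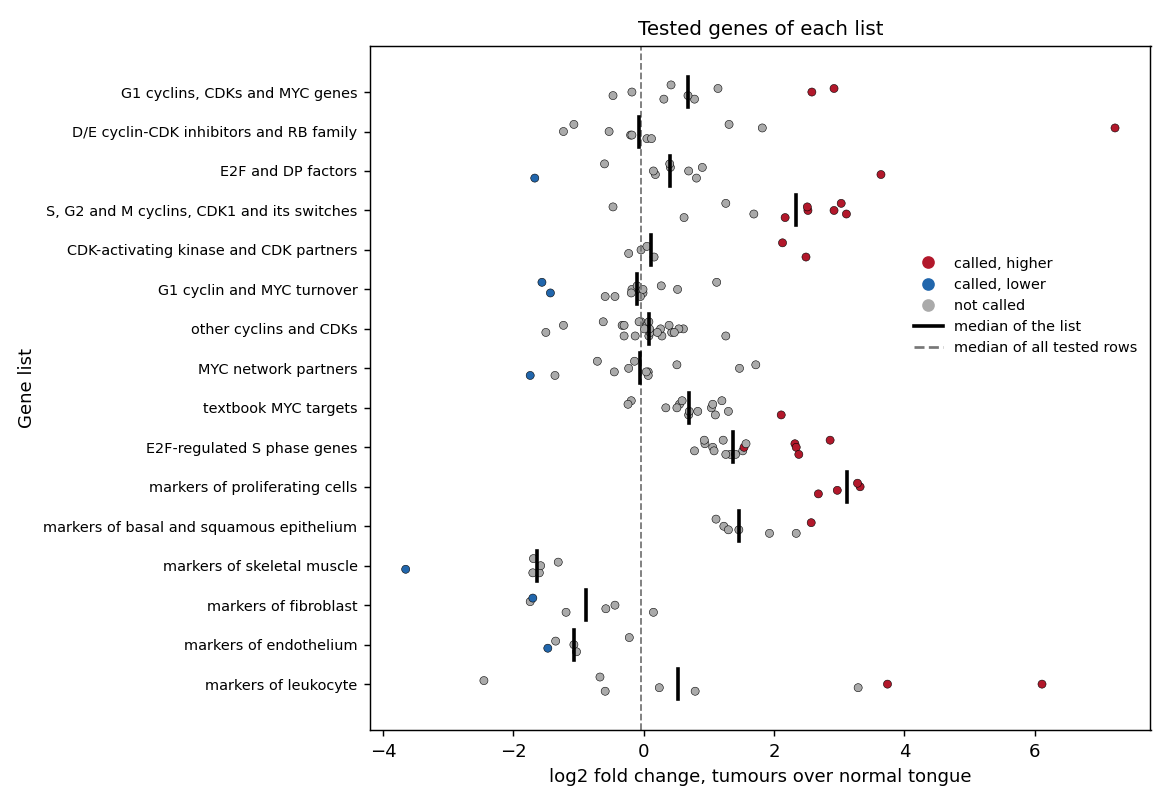
Log2 fold changes, 4-NQO tumours over normal tongue, of the tested genes in each list (points), with the list's median (black bar) and the median of all tested rows (dashed line, −0.04). Red points were called higher in tumours, blue ones lower, grey ones were not called. The medians are 0.68 for the G1 cyclins, CDKs and MYC genes, 2.34 for the S, G2 and M genes and 0.08 for the other cyclins and CDKs.

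Markers of several cell types also differed between the groups, and their part in the results was not tested. The counts of calls given for them stand beside 3.07% of all tested rows called higher and 3.19% called lower. All 4 markers of proliferating cells (Mki67, Top2a, Birc5 and Bub1) were called higher in the authors' deposited table, with a summed level of 74.8 FPKM in tumours and 9.01 FPKM in normal tongue. Of 8 markers of basal and squamous epithelium, 7 were tested, 1 was called higher (Dsg3) and none of the 7 had a negative fold change. Their summed level was 3755 FPKM in tumours and 1025 FPKM in normal tongue. Krt5 alone was 3201 FPKM in tumours and 843 FPKM in normal tongue, and it was not called (log2 fold change 1.93 ± 2.38). Krt14 is listed at 0 in tumours under the status HIDATA, was not tested, and its tumour level cannot be read from that 0. The defining markers Krt5 and Trp63 were present in both groups.

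Of 10 skeletal muscle markers, 6 were tested, 1 was called lower (Myh2) and all 6 fold changes were negative, with a summed level of 3979 FPKM in tumours and 10886 FPKM in normal tongue in the deposited table. The other 4 (Acta1, Ckm, Myh4 and Tnnt3) are listed at 0 in normal tongue under the status HIDATA and were not tested. As for Krt14, their levels in normal tongue cannot be read from that 0. Fibroblast markers had 1 of 6 called lower (239 FPKM summed in tumours, 602 FPKM in normal tongue), and endothelial markers 1 of 5 lower (36.5 FPKM summed in tumours, 73.4 FPKM in normal tongue). Of 9 leukocyte markers 8 were matched and tested, and 2 were called higher, S100a8 and Cd3g. The list had 5 positive and 3 negative log2 fold changes, the negative ones in the B-cell gene Cd79a (−2.45), Adgre1 (−0.67) and Csf1r (−0.59), none of them called. The summed level of the list was 4148 FPKM in tumours and 74.6 FPKM in normal tongue, of which S100a8 alone was 4134 FPKM in tumours and 59.7 FPKM in normal tongue. Ptprc, the pan-leukocyte gene, was at 2.38 FPKM in tumours and 1.38 FPKM in normal tongue.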

How the data were processed

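Poly(A)-selected RNA was sequenced from 3 tumours and 5 normal tongues, per the labels. The authors deposited 1 table with the outcome of their test. It holds 1 FPKM per gene and group, a log2 fold change (tumours over normal), a test statistic (a score whose sign is opposite to the fold in 100% of tested rows), a p-value and a q-value, per the file headers. The submitters' processing notes name GSNAP 2011.11.17, edgeR and GRCh37, a human build, with no role. Which program wrote the table, and on which mouse build, is not given in the sources used here. No count or depth is given, and samples within a group are pooled, so no new test between groups was made.

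Rows with status OK (15783) were taken as tested, and 97 with a group at 0 have no finite fold. A call is a deposited q under 0.05, which equals the authors' own call in every row. The SE is the fold change divided by the statistic, because the deposited p-value is the two-sided normal p of the statistic to within 2.81e-06. A 95% interval is the estimate ± 1.96 SE. The smallest callable change is 3.22 SE, from the statistic at the largest called p. Loci were shifted by 1 base to count from 1. Derived values and the Benjamini-Hochberg adjustment were checked on simulated data. Python 3.11.15, pandas 2.3.3, numpy 2.4.6 and scipy 1.17.1 were used.

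The genes and the 9 pathway and 6 marker lists were chosen with earlier results of these data known. Named genes are all 10 members and, per list, every called gene where at most 4 were called, otherwise the 2 highest and 2 lowest called at 1 FPKM or more in the higher group. Where none was called, the gene with the smallest q was named. Cdk7, Ccnh, Mnat1, Cdc37, Fbxw7 and the cell type markers named were chosen outside this rule, after their values were seen. Genes of other symbols in the table were matched through RefSeq accessions. Alternatives tried were other q thresholds, a Benjamini-Hochberg adjustment over tested rows, a minimum of 1 FPKM, pseudocounts of 1 and 0.1 FPKM, and re-centring.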

Additional observations from a re-analysis of the deposited data

How the results depend on the processing

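Of 114 alternative values, 99 stayed within 1 SE or 1.5 times the count, 15 moved and 0 reversed. Only fold changes and their medians could reverse, since counts of calls have no direction. Re-centring could reverse only values close to 0. Both called genes, Ccne1 and Cdk6, passed at a q threshold of 0.1, with a Benjamini-Hochberg adjustment over tested rows and with a minimum of 1 FPKM. No further member was called at these settings. Over all tested genes the count was 988 at a q threshold of 0.05. It was 1271 at 0.1, 1420 with the Benjamini-Hochberg adjustment and 951 with the minimum of 1 FPKM. The contrast of the members with all tested rows was thus smaller at 0.1 and with that adjustment. At a q threshold of 0.01, 1 of the 10 genes (Ccne1) was called, as were 571 of all tested genes, 1 E2F gene, 3 S phase genes, and 0 genes each of the turnover, MYC partner and MYC target lists. At 0.1, or with the Benjamini-Hochberg adjustment, 2 genes of the inhibitor and RB list and 1 of the other cyclins and CDKs were called, and that adjustment called 3 MYC partners. A pseudocount of 1 FPKM moved the log2 fold change to 2.20 for Ccne1 and to 1.44 for Cdk6, and the median of the S, G2 and M list to 1.65. Pseudocounts were not tried on single genes of the lists. Cdkn2a, E2f7 and Orc1 were under 1 FPKM in normal tongue, so their fold changes rest on low levels there. Re-centring shifts every log2 fold change by 0.04.

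Leaving out samples in turn could not be run, since the table has 1 value per group. No paired analysis was possible because the table holds no values per sample and the sample numbers in the titles are not shared between the groups. Single group values cannot show whether 1 tumour carries a difference, and without counts the precision of low genes such as Cdk6 and Ccne2 rests on the authors' test alone.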

Other observations

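Standard errors in the authors' deposited table differed with the structure of the locus. The part of this in the calls was not tested. The median SE of a log2 fold change was 0.51 over 12853 tested genes alone at their locus and 0.72 over 2833 genes that share one. It was 0.52 for genes with 1 RefSeq transcript and 0.56 for genes with 2 or more. The share called was 7.15% among genes alone at their locus and 2.4% among those that share one. Ccne2 (SE 1.72) and Ccnd3 (SE 0.78), with the largest standard errors among the 9 tested genes, both share a locus and have several transcripts. The called genes Ccne1 (SE 0.63) and Cdk6 (SE 0.72) have 1 transcript each and a locus of their own, and so do Ccnd1 (SE 0.49) and Cdk4 (SE 0.45), which were not called. Cdk2 and Myc, also not called, are alone at their loci with several transcripts and an SE of 0.53 each. Ccnd2 shares a locus with a gene listed at 0.191 FPKM in tumours and 0.235 FPKM in normal tongue and has an SE of 0.48. The neighbours Ints8 (6.06 FPKM in tumours, 5.21 FPKM in normal tongue) and Bysl (11.5 FPKM in tumours, 8.42 FPKM in normal tongue) were not called.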
